A study of Mus musculus with 12 samples.

Results

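Voltage-gated calcium channels were followed through 10 genes of the deposited count table, chosen by their symbols out of its 23893 genes: the pore genes Cacna1a, Cacna1b, Cacna1c, Cacna1d, Cacna1e, Cacna1g, Cacna1h and Cacna1i, and the auxiliary α2δ genes Cacna2d1 and Cacna2d3. RNA was sequenced from 12 mouse cortical neuron cultures, 3 in each of 4 groups, prepared from E13.5-15.5 embryos. The labels give the strain as C57BL6 and the genotype as Wild-type or Top1cKO, and by the study's methods all cultures were Top1 fl/fl. At 3 days in vitro (DIV) all cultures received a lentivirus whose CaMKIIα promoter is active in neurons, which carried tdTomato alone (the WT groups) or the tdTomato-P2A-CRE cassette (the Top1 cKO groups) and reached 85 to 90% of the cells. At DIV 15 the cultures were given vehicle (Veh, 0.003% DMSO) or 300 nM topotecan (Topot), a TOP1 inhibitor, in the same DMSO for 3 days. Without CRE the groups are called WT-Veh and WT-Topot, and with CRE they are called Top1 cKO-Veh and Top1 cKO-Topot. Cells that the virus missed keep Top1. The paper holds that the TOP1 protein left after CRE came most likely from uninfected neurons, from non-neuronal cells or from both.

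The pore-forming α1 subunit decides which current a voltage-gated calcium channel carries. Cav1 channels give long-lasting L-type currents that couple activity to gene expression, Cav2 channels give the P/Q-, N- and R-type currents that trigger transmitter release at presynaptic terminals, and Cav3 channels give transient T-type currents that open near the resting potential and shape burst firing. The α2δ proteins sit outside the membrane, raise the number of channels at the cell surface and are the target of gabapentin in the case of Cacna2d1. TOP1 relieves the supercoils that build up ahead of and behind RNA polymerase, and many synaptic genes have long introns over which it must travel.

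The 12 libraries held 1730164 to 4583777 counts. Top1 itself ranged from 117 to 163 CPM (counts scaled to library size) without CRE and from 27.1 to 44.0 CPM with it, 6 libraries each. The 9 neuron markers summed to between 7679 and 10220 CPM over all libraries. Of these, 1 was called lower in WT-Topot against WT-Veh, Rbfox3 (157 ± 14.1 and 80.2 ± 1.61 CPM, SD, n = 3). The 8 astrocyte markers summed to 2370 to 4826 CPM in WT-Veh and 1087 to 1836 CPM in WT-Topot, where 3 of the 8 were called lower. In Top1 cKO-Veh the astrocyte sum was 2685 to 6145 CPM and in Top1 cKO-Topot 1686 to 3110 CPM. Astrocyte markers were thus present in all cultures, and their sums were lower in WT-Topot than in WT-Veh without overlap. Between the deleted groups the sums overlapped. There all 8 markers had negative log2 fold changes with topotecan (median −0.92), and none was called. The part of astrocyte markers in the results on the channel genes was not tested in either genotype. The sums of the 10 interneuron markers lay at 814 to 1780 CPM (WT-Veh), 576 to 1055 CPM (WT-Topot), 1238 to 1451 CPM (Top1 cKO-Veh) and 944 to 1392 CPM (Top1 cKO-Topot). Microglia (2.51 to 20.2 CPM), endothelial and mural (15.2 to 44.6 CPM) and proliferation markers (23.8 to 48.1 CPM) were low in all libraries, and oligodendrocyte lineage markers summed to 98.5 to 297 CPM. In these bulk cultures, fewer cells of a type and less RNA per cell cannot be told apart.

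The 10 genes differ in length far more than in their messages. On NCBIM37, the assembly that mm9 names, GENCODE vM1 places Cacna2d3 at chr14:29718133-30535050 on the minus strand, a span of 816.918 kb of which exons take 0.45%. Cacna1c spans 603.936 kb (chr6:118542314-119146249, minus strand) and holds an intron of 272.276 kb. Cacna1d spans 451.208 kb (chr14:30853135-31304342, minus), Cacna2d1 439.821 kb (chr5:15440509-15880329, plus), Cacna1e 333.401 kb (chr1:156239649-156573049, minus) and Cacna1a 251.807 kb (chr8:86912339-87164145, plus). Cacna1b (159.266 kb, chr2:24459407-24618672, minus) and Cacna1i (111.042 kb, chr15:80117668-80228709, plus) are shorter. The shortest are Cacna1g (65.71 kb, chr11:94269705-94335414, minus) and Cacna1h (59.499 kb, chr17:25511230-25570728, minus). Their exons together cover 3.691 kb in Cacna2d3 and between 8.389 and 12.696 kb in the other 9 genes.

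The sequence before the start of the gene also differs within the set, and 4 promoters are shown, those of 3 long genes that fell with topotecan and that of Cacna1b, which was not called, because they differ in the motif marked. The RefSeq promoter table, on GRCm38.p6 and so not on the coordinates given above, held 7 of the 10 genes, without Cacna1a, Cacna1g and Cacna1h. Capitals mark the GC box, the letters GGGCGG or CCGCCC on the other strand, where matches may overlap. The first start site is shown, with the 250 bases before it.
Cacna2d3, chr14:29721865-29722114, minus strand: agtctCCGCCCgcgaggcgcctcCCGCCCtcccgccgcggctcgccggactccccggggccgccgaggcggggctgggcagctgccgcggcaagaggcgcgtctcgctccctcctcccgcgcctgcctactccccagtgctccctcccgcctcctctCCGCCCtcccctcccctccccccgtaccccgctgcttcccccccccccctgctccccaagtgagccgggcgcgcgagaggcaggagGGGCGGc
Cacna2d1, chr5:15934441-15934690, plus strand: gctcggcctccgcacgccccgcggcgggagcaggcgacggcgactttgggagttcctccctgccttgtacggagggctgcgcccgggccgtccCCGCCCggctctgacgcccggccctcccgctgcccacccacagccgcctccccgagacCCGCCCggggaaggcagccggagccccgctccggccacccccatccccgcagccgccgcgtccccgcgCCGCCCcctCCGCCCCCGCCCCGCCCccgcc
Cacna1e, chr1:154725921-154726170, minus strand: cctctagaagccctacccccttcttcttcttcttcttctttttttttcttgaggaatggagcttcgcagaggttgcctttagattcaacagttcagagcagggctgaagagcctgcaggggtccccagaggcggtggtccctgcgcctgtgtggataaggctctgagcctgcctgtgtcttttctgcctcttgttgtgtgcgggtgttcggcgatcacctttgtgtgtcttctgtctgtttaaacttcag
Cacna1b, chr2:24763153-24763402, minus strand: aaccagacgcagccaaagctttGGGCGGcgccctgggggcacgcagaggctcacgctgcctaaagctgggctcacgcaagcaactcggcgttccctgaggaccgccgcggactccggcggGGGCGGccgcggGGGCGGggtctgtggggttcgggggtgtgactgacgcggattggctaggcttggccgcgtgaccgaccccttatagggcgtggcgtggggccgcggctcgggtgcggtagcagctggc
The Cacna2d3 window held 4 GC boxes and 30 CG dinucleotides, and that of Cacna2d1 held 6 boxes and 36 CG dinucleotides. The Cacna1e window held no GC box and 6 CG dinucleotides, the median of all windows. The Cacna1b window held 3 boxes and 29 CG dinucleotides, while the Cacna1i window, not shown, held none of the former. Of the 32851 promoter windows of the same length, 32.7% held a GC box. By start site, the Cacna1c windows held 0, 6 and 0 boxes and the Cacna1d windows 0 and 5, so the count depends on the site chosen. At the first start site, genes that fell with topotecan were thus found with and without this motif, and so were genes that were not called.

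In vehicle-treated WT cells the channel genes were compared per kb of exon (RPKM, the CPM of a gene divided by its exon length in kb). Cacna2d1 had the highest level, 40.5 ± 6.05 RPKM (SD, n = 3 cultures), above the highest Cacna1e library. Among the pore genes the mean levels ran from Cacna1e (17.4 ± 5.33) over Cacna1i (15.7 ± 1.74), Cacna1a (14.3 ± 5.30) and Cacna1b (9.74 ± 1.36) to Cacna1c (5.05 ± 1.55), Cacna1h (4.48 ± 1.10), Cacna1g (3.02 ± 0.685) and Cacna1d (2.82 ± 0.486 RPKM). Cacna2d3, with 12.2 ± 3.62 RPKM, lay between Cacna1a and Cacna1b. Of the neighbours in this order, only Cacna2d1 and Cacna1e, and Cacna1b and Cacna1c, had libraries that did not overlap. The libraries of the other neighbours overlapped, but within each of the 3 libraries Cacna1a was above Cacna2d3, Cacna2d3 above Cacna1b and Cacna1h above Cacna1g.

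To ask how topotecan alters channel expression, WT-Topot was compared with WT-Veh in edgeR's quasi-likelihood test, with p-values adjusted by the Benjamini-Hochberg method over the 23893 genes and a false discovery rate (FDR) of 0.01. Of the 10 channel genes, 5 were called lower (Cacna2d3, Cacna1c, Cacna1a, Cacna2d1 and Cacna1e) and 1 was called higher (Cacna1g). Over all genes of the table, 2.04% were called lower and 0.682% higher, and among the 2016 genes over 100 kb that averaged 1 CPM or more, 17.9% were called lower. The median log2 fold change was −0.995 over the 10 channel genes and 0.03 over the 13720 genes averaging 1 CPM or more. By replicate number, 8 of the 10 genes were lower in WT-Topot for all 3 numbers, and Cacna1g and Cacna1h were higher for all 3. The share of all genes with the same direction for all 3 numbers is not given here.

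**Figure D1:**
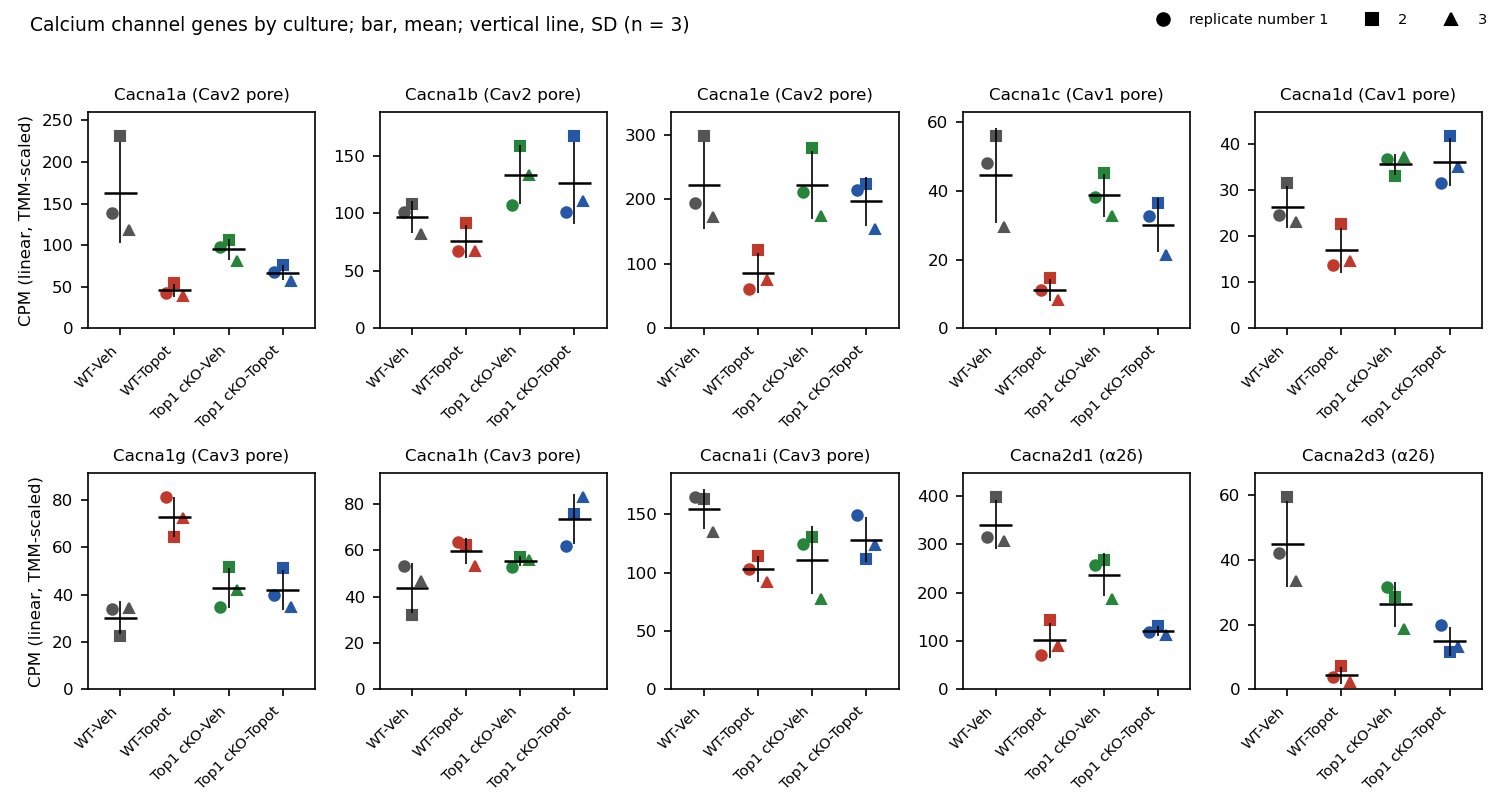
Level of each calcium channel gene (y axis, CPM after TMM scaling, linear, from 0) in each of the 12 cultures by group (x axis). Symbols mark the replicate number, the horizontal bar the mean and the vertical line the SD of 3 cultures. The WT-Topot cultures lie lowest for Cacna1a, Cacna1c, Cacna1d, Cacna1e and Cacna2d3, and highest for Cacna1g.

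Both α2δ genes of the set fell, and Cacna2d3 fell most of the 10 genes. The family has 2 further members outside the set, Cacna2d2 (31.1 ± 4.84 CPM in WT-Veh and 35.6 ± 7.73 CPM in WT-Topot) and Cacna2d4 (1.51 ± 1.28 and 4.82 ± 2.33 CPM, SD, n = 3), neither of which was called. Cacna2d3, whose product raises channel density at synapses, had 42.1, 59.6 and 33.4 CPM in the WT-Veh libraries and 3.69, 7.16 and 2.14 CPM in the WT-Topot libraries. All 3 treated cultures lay below all vehicle cultures, at raw counts of 11, 25 and 5. The log2 fold change was −3.31 (standard error, SE, 0.361, adjusted p = 5.90e-06, edgeR). Cacna2d1, which raises surface levels of Cav1 and Cav2 channels, had 315, 398 and 306 CPM with vehicle and 71.7, 143 and 89.9 CPM with topotecan. Its groups did not overlap either, and the log2 fold change was −1.74 (SE 0.225, adjusted p = 4.32e-05, edgeR). Cacna2d3 made up 22.8 ± 2.79% of the summed RPKM of Cacna2d1 and Cacna2d3 in WT-Veh and 8.61 ± 3.01% in WT-Topot (SD, n = 3), so the pair did not fall in proportion.

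Of the Cav2 genes, which serve transmitter release, Cacna1a and Cacna1e were called lower and Cacna1b was not. Whether the genes differed from each other was not tested. Cacna1a, the P/Q-type pore, had 139, 232 and 118 CPM in WT-Veh and 42.6, 55.0 and 39.4 CPM in WT-Topot. The groups were separate, with a log2 fold change of −1.83 (SE 0.243, adjusted p = 5.84e-05, edgeR). Cacna1e, the R-type pore, had 193, 298 and 172 CPM with vehicle against 61.7, 121 and 74.5 CPM with topotecan, again without overlap. Its log2 fold change was −1.37 (SE 0.248, adjusted p = 0.00153, edgeR), and with only genes kept by a filter on low counts the adjusted p was 0.0105, so the call was lost. Cacna1b, the N-type pore, had 101, 108 and 81.8 CPM with vehicle and 67.4, 91.9 and 67.7 CPM with topotecan, with overlapping groups. Its log2 fold change of −0.35 (SE 0.200) was not called (adjusted p = 0.534, edgeR).

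Of the L-type pores of the Cav1 class, Cacna1c was called lower and Cacna1d was not. Cacna1c, the main L-type pore of cortical neurons, had 48.0, 56.1 and 29.4 CPM in WT-Veh and 11.1, 14.6 and 8.14 CPM in WT-Topot. Every treated culture was below every vehicle culture, and the log2 fold change was −1.96 (SE 0.296, adjusted p = 2.25e-04, edgeR). Cacna1d, the L-type pore that opens at lower voltage, had 24.6, 31.6 and 23.0 CPM with vehicle and 13.7, 22.6 and 14.6 CPM with topotecan. All its treated cultures lay below the vehicle cultures, but the log2 fold change of −0.62 (SE 0.283) was not called (adjusted p = 0.336, edgeR). Exons of Cacna1d overlap those of Chdh on the other strand, which had 2 to 10 counts per library in WT-Veh and 3 to 6 in WT-Topot. Exons of Cacna1h likewise overlap Tpsg1 (0 to 10 counts per library) and those of Cacna1a overlap Gm16183. Whether the counting used strand is not given in the sources used here.

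Of the T-type genes of the Cav3 class, Cacna1g rose and the other two were not called. Cacna1g had 33.9, 22.4 and 34.6 CPM in WT-Veh and 81.4, 64.4 and 72.4 CPM in WT-Topot. It was higher in all treated cultures, with a log2 fold change of 1.27 (SE 0.225, adjusted p = 0.00121, edgeR). Cacna1h had 53.0, 32.0 and 46.7 CPM with vehicle and 63.3, 62.4 and 53.1 CPM with topotecan, where the closest libraries of both groups were at 53.0 and 53.1 CPM. Its log2 fold change of 0.45 (SE 0.221) was not called (adjusted p = 0.414, edgeR). Cacna1i had 165, 163 and 135 CPM with vehicle and 103, 114 and 91.6 CPM with topotecan. Its groups did not overlap, but the log2 fold change of −0.58 (SE 0.183) was not called (adjusted p = 0.088, edgeR), and it was called lower once the replicate number entered the fit as a block (adjusted p = 7.94e-04). In that fit 5% of all genes were called lower and 3.24% higher.

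Counted without a model, 7 of the 10 genes were lower and 2 higher in every WT-Topot library than in every WT-Veh library. Over the 13720 genes averaging 1 CPM or more, 13.2% were lower and 12.9% higher in this sense.

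The makeup of pore transcripts therefore differed between WT-Veh and WT-Topot. The Cav3 genes took 32.7 ± 6.19% of the summed RPKM of the 8 pore genes in WT-Veh (25.5 to 36.6%) and 53.0 ± 5.68% in WT-Topot (46.9 to 58.1%; SD, n = 3). The Cav2 share was 56.6 ± 5.77% and 40.2 ± 4.85%, and the Cav1 share 10.8 ± 0.928% and 6.76 ± 0.940%. For all 3 classes the difference exceeded both SDs and the libraries did not overlap. The summed level of the Cav3 genes was 23.2 ± 2.07 RPKM in WT-Veh and 23.8 ± 1.64 RPKM in WT-Topot, within the spread, while that of all 8 pore genes was 72.5 ± 13.4 and 45.2 ± 6.01 RPKM. In WT-Topot the order of the genes was led by Cacna2d1 (12.1 ± 4.38 RPKM) and Cacna1i (10.4 ± 1.14), whose libraries overlapped, and ended with Cacna1c (1.28 ± 0.367) and Cacna2d3 (1.17 ± 0.696 RPKM), which overlapped too. Cacna1g stood at rank 4 of the 10 genes, against rank 9 in WT-Veh, at 7.24 ± 0.849 RPKM.

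**Figure D2:**
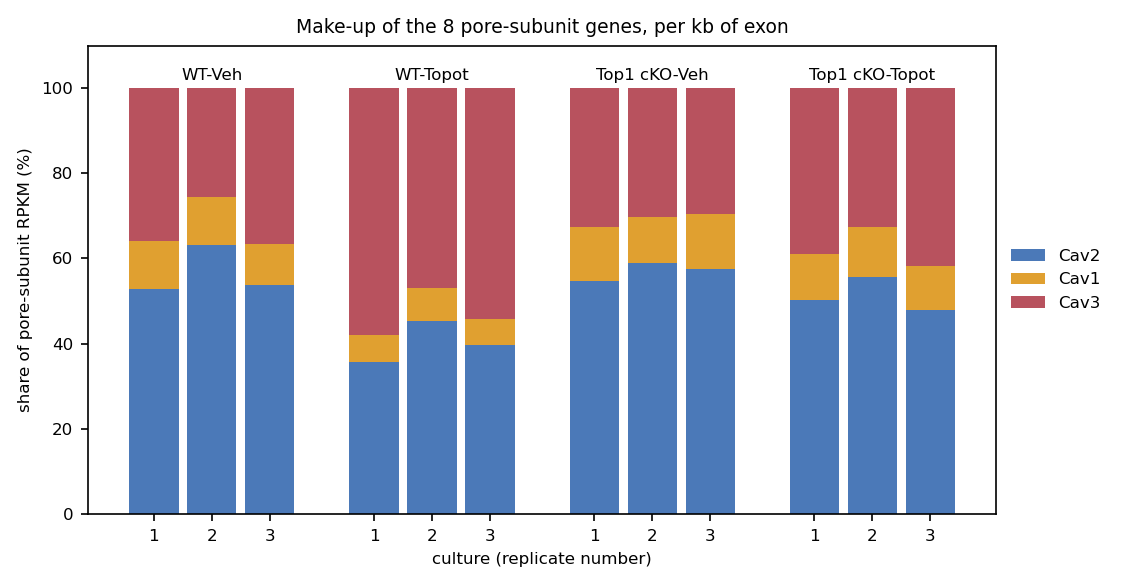
Share of the Cav2, Cav1 and Cav3 genes in the summed RPKM of the 8 pore genes (y axis, %) in each culture (x axis, replicate number within group). In the 3 WT-Topot cultures Cav3 takes 46.9 to 58.1%, more than in any other culture, where it lies between 25.5 and 41.7%.

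To ask whether deletion of Top1 alone altered the channel genes, Top1 cKO-Veh was compared with WT-Veh. None of the 10 genes was called by edgeR's quasi-likelihood test, by its exact test or by DESeq2's Wald test. In the quasi-likelihood test at an FDR of 0.01, 0.126% of all genes were called lower and 0.046% higher. Unadjusted, 4 of the 10 were lower and 1 higher at p under 0.05, a cut whose share of all genes is not given here. Under the replicate block, 4 genes were called lower (Cacna1a, Cacna1i, Cacna2d1 and Cacna2d3), where 2.95% of all genes were called lower and 2.6% higher. These 4 were also the genes whose libraries lay below WT-Veh without overlap, against 10.3% of the same 13720 expressed genes. Cacna1d and Cacna1g lay above WT-Veh without overlap, against 9.58%.

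Cacna1a had 97.8, 106 and 81.2 CPM in Top1 cKO-Veh, below all WT-Veh libraries. The log2 fold change was −0.78 (SE 0.237, adjusted p = 0.203, edgeR) and the adjusted p with the block was 2.76e-06. Cacna2d1 had 257, 268 and 186 CPM, and its log2 fold change was −0.52 (SE 0.190, adjusted p = 0.344; 1.74e-04 with the block). Cacna2d3 had 31.7, 28.6 and 18.5 CPM, for a log2 fold change of −0.77 (SE 0.276, adjusted p = 0.324; 0.00175 with the block). Cacna1i had 125, 131 and 77.2 CPM, for a log2 fold change of −0.47 (SE 0.213, adjusted p = 0.531; 0.00497 with the block). All 4 were thus lower in deleted cultures for each of the 3 replicate numbers, while Cacna1b, Cacna1d and Cacna1g were higher for each. How often genes of the whole table agree in this way is not given here.

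The other genes were not called with or without the block. Cacna1e had 211, 279 and 174 CPM in Top1 cKO-Veh, and its fitted log2 fold change was 0.00 (SE 0.227). Cacna1c had 38.3, 45.1 and 32.6 CPM, a log2 fold change of −0.20 (SE 0.258). Cacna1b (108, 159 and 134 CPM) and Cacna1d (36.8, 33.0 and 37.1 CPM) had positive log2 fold changes, 0.46 (SE 0.200) and 0.43 (SE 0.241). Those of Cacna1g (34.8, 51.8 and 42.1 CPM) and Cacna1h (52.8, 57.0 and 55.6 CPM) were 0.51 (SE 0.253) and 0.33 (SE 0.229). All Top1 cKO-Veh libraries of Cacna1c and Cacna1e, which fell with topotecan, lay within the range of the WT-Veh libraries.

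**Figure D3:**
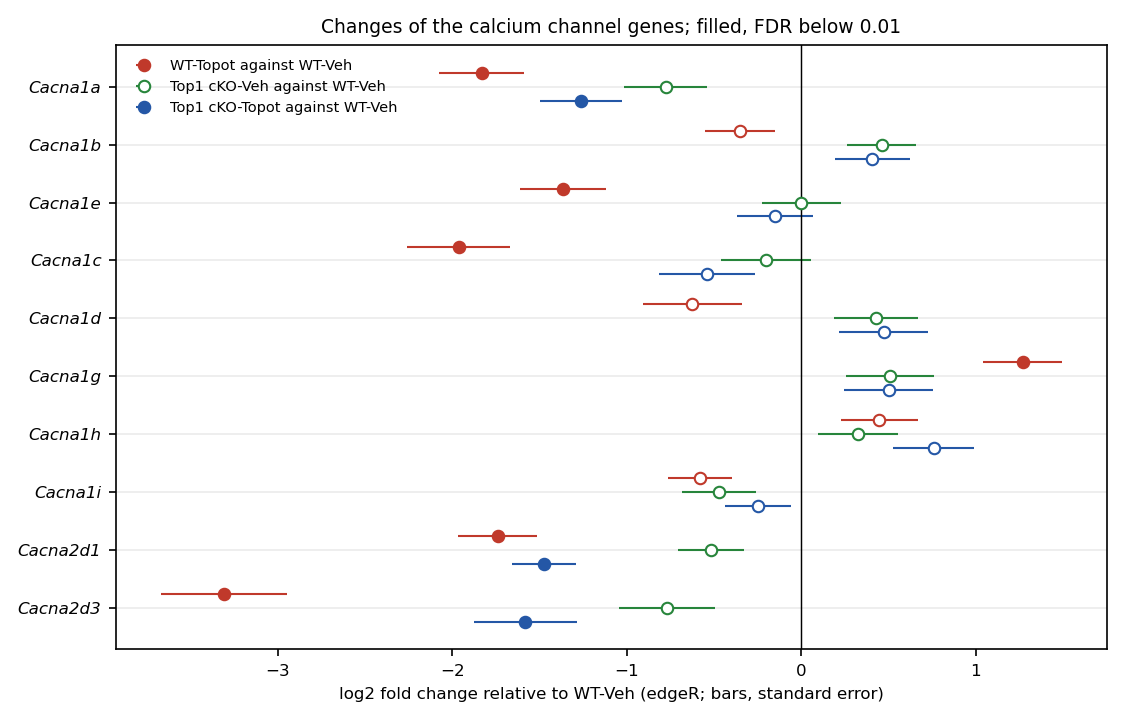
Log2 fold change of each calcium channel gene relative to WT-Veh (x axis, edgeR, bars give the standard error) for WT-Topot (red), Top1 cKO-Veh (green) and Top1 cKO-Topot (blue), with filled points at an FDR below 0.01. Cacna2d3 in WT-Topot lies farthest left at −3.31, no green point is filled, and Cacna1a, Cacna2d1 and Cacna2d3 carry filled blue points. The 3 comparisons share the WT-Veh libraries.

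In Top1 cKO-Topot against WT-Veh, 3 channel genes were called lower (Cacna1a, Cacna2d1 and Cacna2d3) and the block added Cacna1h as higher. Over all genes 1.21% were called lower and 0.473% higher, and 4.02% and 3.34% with the block. Without overlap, 3 were below and 2 above WT-Veh, against 14.4% and 12% of the expressed genes. Cacna2d1 had 118, 132 and 112 CPM in Top1 cKO-Topot, a log2 fold change of −1.47 (SE 0.186, adjusted p = 4.31e-05, edgeR). Cacna1a had 68.1, 75.7 and 57.3 CPM, a log2 fold change of −1.26 (SE 0.237, adjusted p = 0.00281, edgeR). Cacna2d3 had 19.9, 11.6 and 13.1 CPM, a log2 fold change of −1.58 (SE 0.295, adjusted p = 0.00268, edgeR). All 3 lay below WT-Veh without overlap, but the calls of Cacna1a and Cacna2d3 were lost without WT-Veh replicate 2 (adjusted p = 0.0236 and 0.025) and without Top1 cKO-Topot replicate 2 (0.0132 and 0.0317). Cacna1h had 61.7, 75.4 and 83.1 CPM, above all WT-Veh libraries, and a log2 fold change of 0.76 (SE 0.231, adjusted p = 0.0757; 0.00258 with the block). Cacna1e (213, 223 and 153 CPM) and Cacna1c (32.7, 36.5 and 21.4 CPM) overlapped WT-Veh, with log2 fold changes of −0.15 (SE 0.217) and −0.54 (SE 0.275), neither called.

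Within deleted cells, topotecan gave no call among the 10 genes by the quasi-likelihood test at an FDR of 0.01. In that test 0.00837% of all genes were called lower and 0% higher. Unadjusted, 3 of the 10 were lower and 1 higher at p under 0.05, a cut whose share of all genes is not given here. DESeq2 and edgeR's exact test each called 1 gene lower, Cacna2d1, against 0.33% and 0.146% of the genes they tested. The block called 3 lower, Cacna2d1, Cacna2d3 and Cacna1a, against 1.74% of all genes lower and 0.858% higher. Without overlap, 2 were lower and 1 higher, against 6.56% and 5.17% of the expressed genes. Cacna2d1 fell from 237 ± 44.8 to 121 ± 9.99 CPM (SD, n = 3) without overlap, a log2 fold change of −0.97 (SE 0.177, adjusted p = 0.0545; 2.02e-15 with the block). Leaving out Top1 cKO-Veh replicate 3 brought it past the threshold (adjusted p = 6.10e-05). Cacna2d3 was at 26.3 ± 6.88 and 14.9 ± 4.42 CPM (log2 fold change −0.82, SE 0.300, adjusted p = 0.837; 0.00513 with the block) and overlapped. Cacna1a was at 95.1 ± 12.8 and 67.0 ± 9.27 CPM without overlap (log2 fold change −0.49, SE 0.193, adjusted p = 0.935; 0.00955 with the block). The log2 fold changes of the other 7 genes lay between −0.35 for Cacna1c and 0.42 for Cacna1h, and none of these was called.

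To ask whether the effect of topotecan differed between WT and deleted cells, the interaction was fitted on all 12 libraries, as the log2 effect in Top1 cKO minus that in WT. No channel gene passed an FDR of 0.01 in the quasi-likelihood test, where 0.398% of all genes were called higher and 0.0377% lower. Unadjusted, 6 channel genes were higher and 1 lower at p under 0.05, a cut whose share of all genes is not given here. DESeq2 called 3 higher (Cacna2d3, Cacna1a and Cacna1c) and Cacna1g lower, against 2.82% and 0.839% of the 9771 genes it gave an adjusted p. With the replicate block, 6 were called higher (Cacna2d3, Cacna1c, Cacna1a, Cacna1e, Cacna1i and Cacna2d1) and Cacna1g lower, against 2.44% and 1.53% of all genes. The difference was 2.48 for Cacna2d3 (SE 0.495, adjusted p = 0.0122 without the block), 1.61 for Cacna1c (SE 0.395, adjusted p = 0.0492) and 1.33 for Cacna1a (SE 0.321, adjusted p = 0.0446, all edgeR). For Cacna1g it was −1.29 (SE 0.320, adjusted p = 0.0518): topotecan raised it in WT cells, whereas in deleted cells it had 34.8, 51.8 and 42.1 CPM with vehicle and 39.8, 51.5 and 35.0 CPM with topotecan. Cacna1b, Cacna1d and Cacna1h were not called by either fit, with differences of 0.28, 0.65 and −0.03.

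Topotecan-treated WT cells were also compared with deleted cells given vehicle. Cacna1a, Cacna1e, Cacna1c, Cacna2d1 and Cacna2d3 were called lower in WT-Topot, 5 of the 10 genes. None was called higher (0 also by DESeq2 or edgeR's exact test). Over all genes 1.23% were called lower and 0.293% higher. Unadjusted, 1 of the 10 was higher at p under 0.05, a cut whose share of all genes is not given here. DESeq2 called 6 lower, the same 5 and Cacna1b, against 3.62% of the 12828 genes it gave an adjusted p. The exact test called 6 lower, the same 5 and Cacna1d, against 1.8% of all genes. Cacna2d3 differed most, with a log2 fold change of −2.55 (SE 0.374, adjusted p = 6.46e-04, edgeR), followed by Cacna1c with −1.77 (SE 0.270, adjusted p = 8.83e-04). Cacna1e (−1.38, SE 0.235, adjusted p = 0.0022), Cacna2d1 (−1.23, SE 0.227, adjusted p = 0.00415) and Cacna1a (−1.06, SE 0.201, adjusted p = 0.00503) followed. The block added Cacna1b (log2 fold change −0.82, adjusted p = 0.0258 without and 5.68e-06 with it) and Cacna1d (−1.05, 0.025 and 2.26e-04) as lower and Cacna1g (0.75, 0.0603 and 9.97e-04) as higher, against 4.8% of all genes lower and 2.93% higher. Without overlap, 7 were lower and 1 higher, against 12.3% and 12.1% of the expressed genes. The calls of Cacna1a, Cacna1e and Cacna2d1 were not kept in every fit with 1 library left out. Without WT-Topot replicate 3 or without Top1 cKO-Veh replicate 2, 2 genes were called, and without WT-Topot replicate 1, 3 genes. In these fits the log2 fold change ranged from −1.19 to −0.95 for Cacna1a, −1.68 to −1.16 for Cacna1e and −1.54 to −1.01 for Cacna2d1.

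In deleted cultures given vehicle the highest levels were those of the same pair as in WT-Veh. In Top1 cKO-Veh Cacna2d1 (28.3 ± 5.34 RPKM) stood above Cacna1e (17.4 ± 4.17) without overlap, and the Cav3 share was 30.9 ± 1.60%. In Top1 cKO-Topot Cacna1e (15.5 ± 2.98), Cacna2d1 (14.4 ± 1.19), Cacna1i (13.0 ± 1.97) and Cacna1b (12.7 ± 3.61 RPKM) were the highest, each overlapping its neighbour, and the Cav3 share was 37.7 ± 4.58%. The summed level of Cacna2d1 and Cacna2d3 was 52.7 ± 9.59 RPKM in WT-Veh, 35.4 ± 7.12 in Top1 cKO-Veh, 18.4 ± 1.35 in Top1 cKO-Topot and 13.3 ± 4.99 in WT-Topot. The sum of the 8 pore genes was 72.5 ± 13.4, 68.5 ± 10.5, 66.1 ± 7.46 and 45.2 ± 6.01 RPKM in the same order (SD, n = 3 cultures each). The summed pore level of both deleted groups was thus within the spread of WT-Veh, although Cacna1a lay below every WT-Veh library in both. The sum of Cacna2d1 and Cacna2d3 lay below WT-Veh without overlap in the other 3 groups.

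The changes in WT-Topot against WT-Veh followed gene span. Spearman's rho between span and log2 fold change was −0.87 over the 10 genes, a description across genes that share the same 6 libraries, and −0.26 over 13313 genes with a span. Both genes of up to 100 kb, Cacna1g and Cacna1h, had positive values, where the median of 11297 such genes was 0.08. Cacna1b and Cacna1i, at 100 to 200 kb, had −0.35 and −0.58 against a median of −0.21. The 4 genes of 200 to 500 kb ran from −0.62 for Cacna1d to −1.83 for Cacna1a around a median of −0.85 over 646 genes, of which 30.7% were called lower. Over 500 kb, Cacna1c had −1.96 and Cacna2d3 −3.31 against a median of −2.11 over 178 genes, of which 64.6% were called lower. Cacna1d, longer than Cacna1a and Cacna1e, changed less than either. In Top1 cKO-Veh against WT-Veh rho was −0.44 over the 10 genes and −0.05 over all genes.

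**Figure D4:**
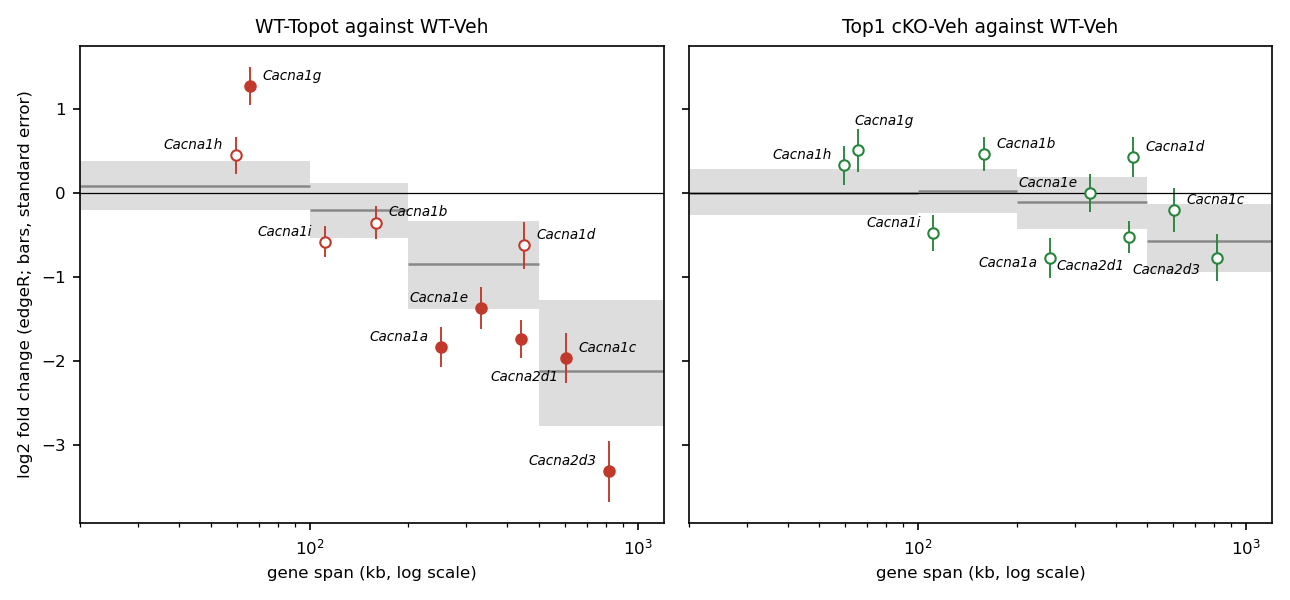
Log2 fold change (y axis, edgeR, bars give the standard error) of the 10 calcium channel genes against gene span (x axis, kb, log scale), for WT-Topot (left) and Top1 cKO-Veh (right) against WT-Veh. Filled points passed an FDR of 0.01. Grey lines and boxes give the median and the middle 50% of genes averaging 1 CPM or more in 4 classes of span, falling from 0.08 to −2.11 on the left and from 0.00 to −0.57 on the right.

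Of 16 other subunit genes, 12 averaged 1 CPM or more. In WT-Topot against WT-Veh 1 of the 16, Cacnb4, was called lower and 1, Cacnb3, higher, where 2.04% of all genes were called lower and 0.682% higher. Both encode β subunits, which bind the α1 subunit inside the cell and help it reach the membrane. Cacnb4 had 529.9, 778 and 563 CPM with vehicle and 175, 219 and 217 CPM with topotecan, a log2 fold change of −1.61 (SE 0.189, adjusted p = 1.42e-05, edgeR). Cacnb3 had 108, 95.1 and 148 CPM and 239.6, 211 and 212 CPM, a log2 fold change of 0.93 (SE 0.195, adjusted p = 0.00584, edgeR). In the interaction fit Cacnb4 was called without the block (1.49, SE 0.239, adjusted p = 0.00239), which no channel gene of the 10 was.

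Among 11114 genes averaging 5 CPM or more, those most like Cacna2d3 over the 12 libraries were Dpp6, a potassium channel auxiliary subunit (Pearson's r = 0.98), Prkcb (0.98), Adcy1 (0.98), Rbfox1 (0.97) and Tmem178b (0.97). Those most like Cacna1g were Kcnip2, a potassium channel partner (0.94), Naa60 (0.94), Grb14 (0.93), Smpd4 (0.92) and Sez6 (0.92). Cacna1g and Cacna2d3 themselves ran opposite to each other (r = −0.89), and Cacna1e and Cacna1c together (r = 0.95). These values, on log2(CPM + 1), describe 12 libraries in 4 groups and carry the group differences given above.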

How the data were processed

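Per the sample labels and the study's methods, the authors prepared polyA RNA libraries with the TruSeq RNA kit, sequenced 50 bp reads from both ends, used TagDust as a filter and TopHat to align to mm9, and removed rRNA reads. The deposited table holds raw counts in RefSeq exons, summed for each gene symbol, without normalization. The counting program, its use of strand and the software versions are not given in the sources used here. Counts were scaled by TMM and pairs of groups (6 libraries) were fitted with edgeR 4.0.16 (glmQLFit, glmQLFTest; R 4.3.3) without a filter, adjusted over 23893 genes, FDR 0.01. The interaction used 12 libraries. Standard errors (SE) are the log2 fold change divided by the root of the F value. DESeq2 1.42.0, edgeR's exact test, RLE scaling, filterByExpr, 1 fit over 12 libraries, an FDR of 0.1 and leaving out each library were alternatives. RPKM was computed from TMM-scaled counts and the union of GENCODE vM1 exons. Of the symbols, 21013 matched directly, 1018 through 1 synonym and 1862 did not. At this depth 3 counts are 0.687 to 1.73 CPM.

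Deviations from the group means correlated between libraries of the same replicate number (r = 0.261 to 0.485 over 18 pairs, -0.384 to -0.0494 over 36 pairs of different numbers, 13720 genes), so values from a fit blocked on this number stand beside each call that they change. The labels give the numbers and do not say what they stand for, nor whether cultures came from separate animals, so p-values measure the spread between these libraries. No 2 libraries of a group were repeats (chi-square per degree of freedom 6.05 to 10.1). On simulated counts for WT-Topot against WT-Veh (23893 genes, 200 changed), the test recovered 42 of 107 genes changed by 1 on the log2 scale and 84 of 93 changed by 2, with 22 false calls.

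The 10 genes and the lists of subunits, regulators, calcium stores and clearance, and cell markers were chosen with earlier results of these data known. All 10 are named. Of the first 3 lists, genes past FDR 0.01 in a comparison of 2 groups are named (at most 10 by p), and for the called gene with the largest fall and the largest rise, the 5 genes with the highest correlation.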

Additional observations from a re-analysis of the deposited data

Results flagged for a closer look

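The effect of topotecan differed between Top1 cKO and WT cells for 7 of the 10 channel genes once the model was blocked on the replicate number, which is why they are listed (log2 effect in Top1 cKO minus that in WT, edgeR quasi-likelihood test over 12 libraries, adjusted over 23893 genes). In this fit 2.44% of all genes were called higher and 1.53% lower. For Cacna2d3 the difference was 2.50 (SE 0.373, adjusted p = 3.64e-06), for Cacna1c 1.61 (SE 0.274, adjusted p = 3.83e-05) and for Cacna1a 1.31 (SE 0.202, adjusted p = 7.01e-06). Cacna1e had 1.22 (SE 0.178, adjusted p = 2.36e-06), Cacna1i 0.80 (SE 0.189, adjusted p = 0.00391) and Cacna2d1 0.79 (SE 0.180, adjusted p = 0.00242). Cacna1g went the other way, with -1.29 (SE 0.262, adjusted p = 5.35e-04). Without the block the adjusted p-values of these 7 genes lay between 0.0122 for Cacna2d3 and 0.392 for Cacna2d1, so none passed an FDR of 0.01.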

How the results depend on the processing

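In WT-Topot against WT-Veh the count stayed at 5 lower and 1 higher channel genes whichever library was left out, and over all alternatives it was 4 to 6 lower and 1 higher. The replicate block gave 4 lower in Top1 cKO-Veh against WT-Veh, 1 higher in Top1 cKO-Topot against WT-Veh, 3 lower in Top1 cKO-Topot against Top1 cKO-Veh, 1 higher in WT-Topot against Top1 cKO-Veh and 6 higher and 1 lower for the interaction. It changed no other call of the 10 genes than those given in the report. With filterByExpr, 1 gene was lower in Top1 cKO-Topot against WT-Veh and 3 in WT-Topot against Top1 cKO-Veh. DESeq2 and the exact test each gave 1 lower in Top1 cKO-Topot against Top1 cKO-Veh; DESeq2 gave 3 higher and 1 lower for the interaction. An FDR of 0.1 gave 1 higher in Top1 cKO-Topot against WT-Veh and in WT-Topot against Top1 cKO-Veh, 1 lower in Top1 cKO-Topot against Top1 cKO-Veh, plus 3 higher and 1 lower for the interaction. Leaving out 1 library at a time, the lower genes numbered 1 to 3 in Top1 cKO-Topot against WT-Veh, 0 to 1 in Top1 cKO-Topot against Top1 cKO-Veh, 2 to 7 in WT-Topot against Top1 cKO-Veh, and the higher genes of the interaction 0 to 1 (Cacna2d3, without WT-Veh replicate 3, WT-Topot replicate 2 or Top1 cKO-Veh replicate 1). The shares of all genes called with filterByExpr, at an FDR of 0.1 or with 1 library left out are not given here, so these counts stand without that comparison. The cause of these shifts was not tested.

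Directions turned only for values within their SE of 0. With filterByExpr Cacna1e in Top1 cKO-Veh against WT-Veh was -0.00742, and with DESeq2 the interaction of Cacna1h was 8.41e-04. Leaving out 1 library, Cacna1e ranged from -0.20 to 0.28 in Top1 cKO-Veh against WT-Veh, from -0.30 to 0.13 in Top1 cKO-Topot against WT-Veh and from -0.31 to 0.029 in Top1 cKO-Topot against Top1 cKO-Veh. In the last comparison Cacna1b ranged from -0.32 to 0.072, Cacna1d from -0.083 to 0.11 and Cacna1g from -0.19 to 0.14. Cacna1i ranged from -0.32 to 0.031 in WT-Topot against Top1 cKO-Veh and the interaction of Cacna1h from -0.20 to 0.15. Per kb of the longest transcript rather than of all exons, Cacna1a had 20.6 RPKM in WT-Veh, above Cacna1e at 17.4. The order of the pore genes thus depends on the length used. The class shares were computed per kb of all exons only. Cacna2d3 in WT-Topot rests on 5 to 25 counts per library, which limits the precision of its fall.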

Other observations

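Genes for calcium stores and clearance, listed beside the channels, were also compared. Of 23 such genes, 7 were called lower and 1 higher in WT-Topot against WT-Veh (edgeR quasi-likelihood test, FDR 0.01), where 2.04% of all genes were called lower and 0.682% higher. The sodium-calcium exchanger genes Slc24a3 (log2 fold change -2.11), Slc8a1 (-1.54) and Slc24a2 (-1.52) and the calcium release channel genes Ryr2 (-1.93), Ryr3 (-1.94) and Itpr1 (-1.05) were lower, as was Atp2b2 (-0.81), a calcium pump of the plasma membrane. Another pump of that family, Atp2b4, was higher in WT-Topot (0.85, adjusted p = 0.00704), in Top1 cKO-Veh (1.11, adjusted p = 0.00814) and in Top1 cKO-Topot (1.08, adjusted p = 0.00242), each against the same WT-Veh libraries. Its WT-Veh libraries held 278 to 307 CPM and all 9 others 430.0 CPM or more. Stim2, a sensor of store calcium, was called higher in Top1 cKO-Topot against WT-Veh (1.15, adjusted p = 0.00256). Ryr2 had 66.4, 57.4 and 55.9 CPM in WT-Veh, 10.1, 20.9 and 15.8 CPM in WT-Topot, 77.0, 78.1 and 61.1 CPM in Top1 cKO-Veh and 49.8, 71.1 and 51.1 CPM in Top1 cKO-Topot, so both deleted groups lay above all WT-Topot libraries. Of 11 regulators of the channels, Stac2, whose product slows inactivation of L-type channels, was the only gene called in a comparison of 2 groups. It was lower in Top1 cKO-Topot against WT-Veh (-1.91, SE 0.346, adjusted p = 0.00199). Its Top1 cKO-Veh libraries spread from 9.52 to 69.2 CPM. In Top1 cKO-Topot against WT-Veh, 1.21% of all genes were called lower and 0.473% higher. The share of all genes called in any comparison of 2 groups is not given here.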
